A study of Mus musculus with 24 samples.

Results

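The comparison described here set the liver transcriptome of Adn-Lpin1-/- mice fed a high-fat diet (HFD) against that of Adn-Lpin1-/- mice fed a low-fat diet (LFD), and it asked which hepatic genes moved with dietary fat when the adipocytes of the animal lack lipin 1. Its members were the 10 libraries, of 24 in the series, that were made from liver RNA of 1 Adn-Lpin1-/- mouse each, with 5 mice on each diet. The mice were males on a C57BL/6J background that carried floxed Lpin1 alleles and a Cre recombinase under the adiponectin promoter, which is active in adipocytes, so all 10 mice carried the deletion. Diet was the only difference between the groups that the labels state. They were 8 weeks old when the diets began, the LFD held 10% and the HFD 60% of kcal as fat, and food was removed 4 hours before the livers were taken. The duration of feeding is 16 weeks in the sample labels and 5 weeks in the methods of the study. The same diet comparison in 10 littermates with floxed Lpin1 and no Cre, called WT, was used beside it. A further kind of library, 1 pool of RNA per group from the same 5 mice, was left out of the tests.

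Lipin 1 is a phosphatidic acid phosphohydrolase that makes diacylglycerol on the way to triglyceride, and adipocytes without it store fat poorly. The liver takes up fatty acids that adipose tissue releases, and it also makes them from acetyl-CoA, a route that the transcription factors SREBP-1c and ChREBP raise after carbohydrate meals and that unsaturated dietary fat lowers. Cholesterol is made in the same cells from the same precursor under the control of SREBP-2, which is inactive when sterols are plentiful. Cytochromes P450 of the CYP2 and CYP4 families, which oxidise drugs, steroids and fatty acids, are among the most diet- and hormone-responsive genes of the liver.

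Total counts were between 51095146 and 61435897 in the Adn-Lpin1-/- LFD libraries and between 57550362 and 81072794 in the HFD libraries. The 50 most abundant genes held 35.9 to 37.3% of the counts on the LFD and 33.4 to 36.2% on the HFD. The 9 measured hepatocyte markers, Alb, Ttr and Apoa1 among them, summed to between 80364 and 106568 CPM (the counts of a gene scaled to a library of fixed size) on the LFD and between 84475 and 111828 CPM on the HFD, and none of them passed the test. The medians of these sums were 103142 CPM on the LFD and 85689 CPM on the HFD, and 6 of the 9 markers had a log2 fold change below 0. CPM were computed on library sizes scaled by the TMM method. Genes with an adjusted p of at most 0.05 in edgeR's quasi-likelihood test are referred to as called. The p-values measure a spread between mice that was estimated over all 20 single mice, the WT mice included. In bulk liver, fewer cells of a type and less RNA per cell cannot be told apart. Values of single mice are given in the order of their numbers, 1 to 5, which tie no LFD mouse to an HFD mouse.

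Of 13052 genes tested, 321 were called, which is a background of 2.46%. Of these, 156 were higher on the HFD (1.20% of all tested) and 165 were lower (1.26%). The median log2 fold change was 0.46 among the higher genes, -0.62 among the lower genes and 0.01 over all genes tested. Large changes were more often decreases, with 22 called genes at least 2-fold higher and 50 at least 2-fold lower, and 7 at least 4-fold higher and 13 at least 4-fold lower. The HFD mice did not overlap the LFD mice for 239 of the 321 called genes, against 530 of all genes tested (4.06%). By type, 297 of the called genes were protein-coding and 10 were pseudogenes. The number of calls rested on several mice. It was 123 without mouse 3, 162 without mouse 2 and 159 without mouse 4 of the LFD group, and 177, 211 and 205 without mouse 1, 2 or 5 of the HFD group. In a fit of the Adn-Lpin1-/- mice alone, without the WT mice, it was 161.

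**Figure D1:**
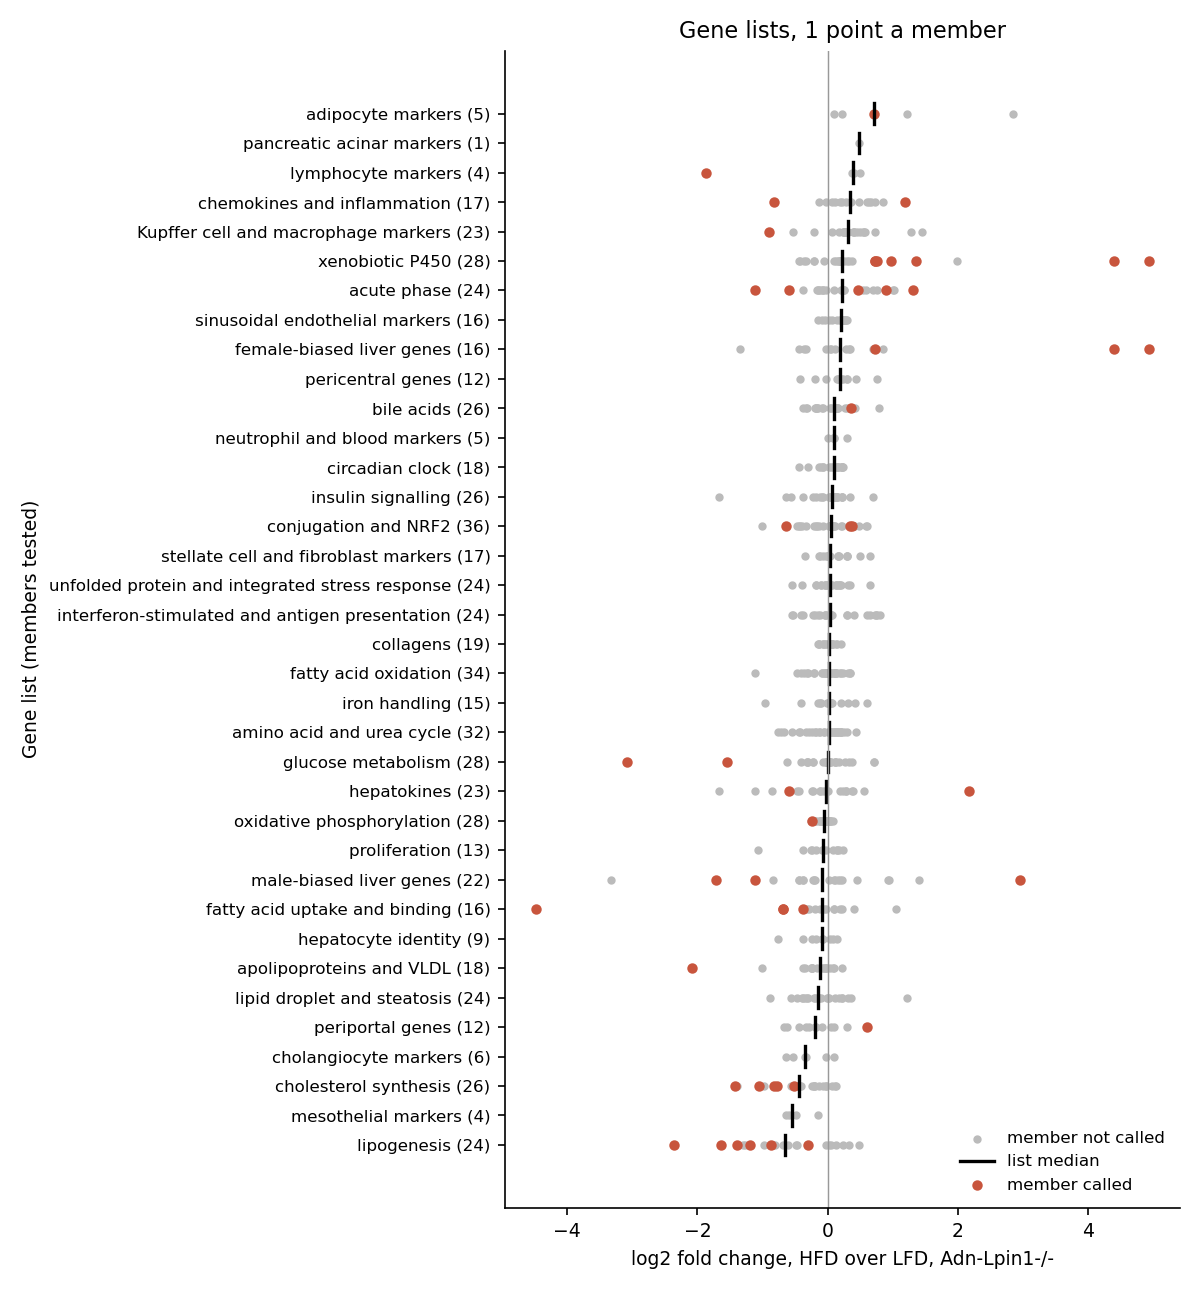
Each row is a list of genes with the number of its members tested, each point is 1 member, and the horizontal axis is the log2 fold change of the HFD over the LFD in Adn-Lpin1-/- mice. Red points passed edgeR's quasi-likelihood test at an adjusted p of 0.05 and black bars are list medians; the lipogenesis median lies at -0.65 and the cholesterol synthesis median at -0.43, while the fatty acid oxidation median lies at 0.02.

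Of 24 members of the lipogenesis list, all tested, 6 fell in HFD livers, none rose and 18 did not pass the test, and the list median was -0.65 on the log2 scale against 0.01 over all genes. Scd1, the stearoyl-CoA desaturase that makes oleate, was at 17863, 26359.6, 24302, 23808 and 22728 CPM on the LFD and at 9250.1, 8384, 11889, 5011 and 2344 CPM on the HFD. It was the most abundant of the lipogenic transcripts that fell, and its highest HFD mouse was below its lowest LFD mouse. The log2 fold change of Scd1 was -1.64 (SE 0.36, edgeR adjusted p = 0.019), which is 3.12-fold lower. Pnpla3, a lipid droplet protein whose common human variant is linked to fatty liver, was at 8.18, 13, 10.7, 6.08 and 11.2 CPM on the LFD and at 1.82, 1.03, 5.12, 0.587 and 0.906 CPM on the HFD. On the HFD 4 mice were below 2 CPM, mouse 3 was the exception, and the groups did not overlap (log2 fold change -2.36, SE 0.48, edgeR adjusted p = 0.0122).

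Acss2, which makes acetyl-CoA from acetate in the cytosol, was at 214, 190.4, 296, 172 and 165 CPM on the LFD and at 86.4, 92.8, 84.7, 54.3 and 75.8 CPM on the HFD. All HFD mice lay well below the LFD range, and the log2 fold change was -1.40 (SE 0.26, edgeR adjusted p = 0.0062). Elovl6, which lengthens palmitate, was at 173, 228, 193, 210.0 and 262 CPM on the LFD and at 119, 66.4, 168, 46.1 and 65.1 CPM on the HFD. HFD mouse 3 came close to the lowest LFD mouse, and the decrease was 2.29-fold (log2 fold change -1.20, SE 0.26, edgeR adjusted p = 0.0177). Fads1, the delta-5 desaturase of polyunsaturated fatty acids, was at 751, 1205, 1089, 1117 and 774 CPM on the LFD and at 604, 643, 586, 449 and 431 CPM on the HFD, with no overlap. Its log2 fold change was -0.86 (SE 0.16, edgeR adjusted p = 0.00631). Slc25a1, the mitochondrial citrate exporter, moved least of the 6, from between 314 and 348 CPM to between 240.2 and 311 CPM (log2 fold change -0.29, SE 0.07, edgeR adjusted p = 0.0343). Leaving out mouse 3 of the HFD group raised the number of called list members to 9, and leaving out any other Adn-Lpin1-/- mouse gave 5 to 7.

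Several central enzymes of the route did not pass the test, and they are given here outside the rule for named genes, after their values were seen. Fasn, the fatty acid synthase, was at 894, 1791, 882, 859.8 and 1622 CPM on the LFD and at 641, 304, 1077, 329 and 147 CPM on the HFD. HFD mouse 3 lay inside the LFD range and the other 4 below it, and the log2 fold change was -1.28 (SE 0.40, edgeR adjusted p = 0.1). For Acacb, the acetyl-CoA carboxylase of the mitochondrial surface, the groups did not overlap, with 234 to 399 CPM on the LFD and 48.2 to 189.5 CPM on the HFD, and the adjusted p of edgeR was 0.0549. Acly and Acaca, the citrate lyase and the cytosolic carboxylase, had log2 fold changes of -0.85 and -0.81 with overlapping groups. Srebf1, which encodes SREBP-1, was at 346 to 557 CPM on the LFD and 253 to 614 CPM on the HFD. Its fitted log2 fold change was 0.02, with an edgeR adjusted p of 0.973.

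Of 26 members of the cholesterol synthesis list, all tested, 5 fell, none rose and 21 did not pass the test. A log2 fold change below 0 was found for 23 of the 26, with a list median of -0.43. Fdps, the farnesyl diphosphate synthase that supplies sterols and isoprenoids, was at 145, 245, 229, 188 and 199 CPM on the LFD and at 100, 89.2, 70.3, 46.4 and 69.5 CPM on the HFD. The groups were apart, with the decrease at 2.68-fold (log2 fold change -1.42, SE 0.27, edgeR adjusted p = 0.00665). Of the 31-base words in Fdps transcripts, 27.9% also occur in transcripts of other genes, Gm43738 above all. Reads that aligned to several places were not counted, so the level of Fdps is uncertain. Pmvk, phosphomevalonate kinase, was at 24.9, 34, 38, 26.5 and 27.4 CPM on the LFD and at 15.4, 19.3, 15.1, 9.65 and 13.2 CPM on the HFD. Each HFD mouse was below every LFD mouse (log2 fold change -1.05, SE 0.19, edgeR adjusted p = 0.00447). Tm7sf2, a sterol C14 reductase, was at 102, 94.2, 118, 106 and 79.3 CPM on the LFD and at 53.7, 65.5, 56, 51.6 and 55.2 CPM on the HFD. The HFD values were closely grouped and below the LFD range (log2 fold change -0.83, SE 0.15, edgeR adjusted p = 0.00413).

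The last steps of the route also fell in part. Dhcr7, which reduces 7-dehydrocholesterol to cholesterol, was at 69.1, 107, 97.9, 80.6 and 76.2 CPM on the LFD and at 59.1, 61.3, 52.9, 33.2 and 44.8 CPM on the HFD (log2 fold change -0.78, SE 0.19, edgeR adjusted p = 0.0315). Sc5d, the sterol C5 desaturase of the step before, was at 300, 402, 339, 289 and 372 CPM on the LFD and at 253, 231, 272, 204 and 226 CPM on the HFD (log2 fold change -0.52, SE 0.13, edgeR adjusted p = 0.0327). Neither gene overlapped between the groups. Dhcr7 lost its call in 6 and Sc5d in 7 of the fits that left out 1 Adn-Lpin1-/- mouse, with edgeR adjusted p up to 0.0885 without LFD mouse 3 and 0.0908 without LFD mouse 2. The count of called list members was 3 without LFD mouse 2 or 3 or HFD mouse 4 or 5, and 8 without mouse 5 of the WT HFD group, which entered the fit through the shared estimate of the spread. Sqle and Cyp51, squalene epoxidase and lanosterol demethylase, had log2 fold changes of -1.40 and -0.80 with edgeR adjusted p of 0.106 and 0.0791, and were chosen after their values were seen. Hmgcs1, at the head of the route, had a log2 fold change of 0.13 and was not called.

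The bases in front of the start sites of sterol and lipogenic genes were searched for shared letters. RefSeq promoters on GRCm38.p6 were at hand for 18 of the 26 cholesterol synthesis genes and 20 of the 24 lipogenesis genes. The letters CCAAT, on either strand, were found within the 250 bases before a start site in 17 of the 18 sterol genes (94.4%) and in 13 of the 20 lipogenic genes (65.0%). Of all 27025 genes with a promoter, 37.5% held CCAAT in this window, and of the tested genes 40.5% did. Among called genes the share was 49.2% of those lower and 35.2% of those higher on the HFD. The longer letters TCACNCCAC, a form of the sterol regulatory element, were found in 1 of the 18 sterol genes and 1 of the 20 lipogenic genes, against 1.22% of all genes. Among called genes they were in 1.59% of those lower and 3.91% of those higher. They were in 0 of the 4 called sterol and 0 of the 4 called lipogenic genes with a promoter. The letters CACGTG were found in 4 of the 18 sterol and 4 of the 20 lipogenic genes, against 6.86% of all genes. A match of letters is a description and not a binding site. Of the called lipogenic genes with a promoter, Elovl6 held no CCAAT. A gene with several start sites was counted if any of its windows held a match, and for Dhcr7 2 of 3 windows and for Pmvk 1 of 2 windows held none. Windows of 6 genes that were lower on the HFD, chosen because they hold a match, are shown 5′ to 3′ along the gene, with CCAAT, or ATTGG where the match is on the opposite strand, in capitals. They lie at chr3:89454291-89454540 (Pmvk, plus strand), chr19:6067851-6068100 (Tm7sf2, minus strand), chr9:42264301-42264550 (Sc5d, minus strand), chr7:143829964-143830213 (Dhcr7, plus strand), chr15:84167566-84167815 (Pnpla3, plus strand) and chr2:155517793-155518042 (Acss2, plus strand).
Pmvk: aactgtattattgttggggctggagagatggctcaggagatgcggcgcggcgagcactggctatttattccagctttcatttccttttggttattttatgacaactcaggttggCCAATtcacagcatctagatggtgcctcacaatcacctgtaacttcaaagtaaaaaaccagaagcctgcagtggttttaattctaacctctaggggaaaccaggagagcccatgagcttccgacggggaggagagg
Tm7sf2: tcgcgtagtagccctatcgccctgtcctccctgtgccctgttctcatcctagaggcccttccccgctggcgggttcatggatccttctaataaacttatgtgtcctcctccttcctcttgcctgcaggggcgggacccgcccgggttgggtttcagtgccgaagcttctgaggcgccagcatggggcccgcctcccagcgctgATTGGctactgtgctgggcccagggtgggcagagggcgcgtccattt
Sc5d: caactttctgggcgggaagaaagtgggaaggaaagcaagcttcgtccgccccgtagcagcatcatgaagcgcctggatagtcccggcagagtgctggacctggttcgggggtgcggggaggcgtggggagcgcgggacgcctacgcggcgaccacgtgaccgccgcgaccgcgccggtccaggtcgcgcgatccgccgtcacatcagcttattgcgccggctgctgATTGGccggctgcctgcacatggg
Dhcr7: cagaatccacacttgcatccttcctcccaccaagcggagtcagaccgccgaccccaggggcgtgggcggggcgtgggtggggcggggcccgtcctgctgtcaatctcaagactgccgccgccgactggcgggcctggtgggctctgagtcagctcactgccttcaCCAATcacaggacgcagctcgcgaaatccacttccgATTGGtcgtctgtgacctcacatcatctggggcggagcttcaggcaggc
Pnpla3: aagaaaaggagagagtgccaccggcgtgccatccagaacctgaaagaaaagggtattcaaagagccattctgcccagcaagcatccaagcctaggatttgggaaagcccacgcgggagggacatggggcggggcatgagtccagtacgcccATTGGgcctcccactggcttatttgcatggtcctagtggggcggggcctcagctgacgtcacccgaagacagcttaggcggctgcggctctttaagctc
Acss2: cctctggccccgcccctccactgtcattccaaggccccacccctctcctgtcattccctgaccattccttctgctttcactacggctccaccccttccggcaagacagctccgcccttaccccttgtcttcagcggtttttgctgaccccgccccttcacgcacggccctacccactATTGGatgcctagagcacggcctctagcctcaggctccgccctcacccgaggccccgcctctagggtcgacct
In these windows the first base of the match lay between 24 bases (Sc5d) and 136 bases (Pmvk) before the start site, and Dhcr7 held 2 matches, on opposite strands.

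Some genes that bind and activate fatty acids fell as well. Of 16 tested members of the list of fatty acid uptake and binding, 4 (25.0%) were called lower and none higher. Of all genes tested, 1.26% were called lower. The list median was -0.09, and 6 of the 16 members had a log2 fold change above 0. Fabp5, an intracellular fatty acid carrier (ENSMUSG00000027533, chromosome 3, 10012548 to 10016607 of GRCm38), had the largest decrease of the protein-coding genes named. It was at 59.5, 71.9, 207, 68.5 and 19.2 CPM on the LFD and at 3.65, 4.91, 3.28, 2.5 and 4.68 CPM on the HFD. LFD mouse 3 stood highest and LFD mouse 5 lowest, and all HFD mice were below 5 CPM. Fabp5 was 22.3-fold lower (log2 fold change -4.48, SE 0.56, edgeR adjusted p = 0.000173), and the call remained in every fit that left out 1 mouse. Its processed pseudogenes Gm14328 and Gm6166, chosen after their values were seen, were lower by similar amounts (log2 fold changes -4.51 and -4.16). The 31-base words of Gm6166 are to 68.6% and those of Gm14328 to 42.6% also in Fabp5 transcripts. Reads that aligned to several places were not counted, so the levels of the pseudogenes are uncertain. Whether these 3 rows are independent was not tested.

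Acsl4 and Acsl5, which activate long-chain fatty acids to acyl-CoA, were at 39.9 to 53.4 and 382 to 431 CPM on the LFD and at 20.5 to 34.8 and 195 to 313 CPM on the HFD. The log2 fold changes were almost equal, -0.68 (SE 0.13, edgeR adjusted p = 0.00751) for Acsl4 and -0.68 (SE 0.14, edgeR adjusted p = 0.011) for Acsl5. Dbi, the acyl-CoA binding protein, fell 1.3-fold, from 729 to 832 CPM on the LFD to 559 to 685 CPM on the HFD (log2 fold change -0.38, SE 0.07, edgeR adjusted p = 0.00842). None of these 3 genes overlapped between the diets. Cd36 and Fabp4, the fatty acid transporter and the adipocyte carrier, had edgeR adjusted p of 0.787 and 0.884 and were chosen after their values were seen. Pnpla5, a lipase relative of Pnpla3, was at 1.23 to 3.1 CPM on the LFD and at 0.032, 0.313, 0.399, 0 and 0 CPM on the HFD (log2 fold change -3.74, SE 0.70, edgeR adjusted p = 0.00665).

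**Figure D2:**
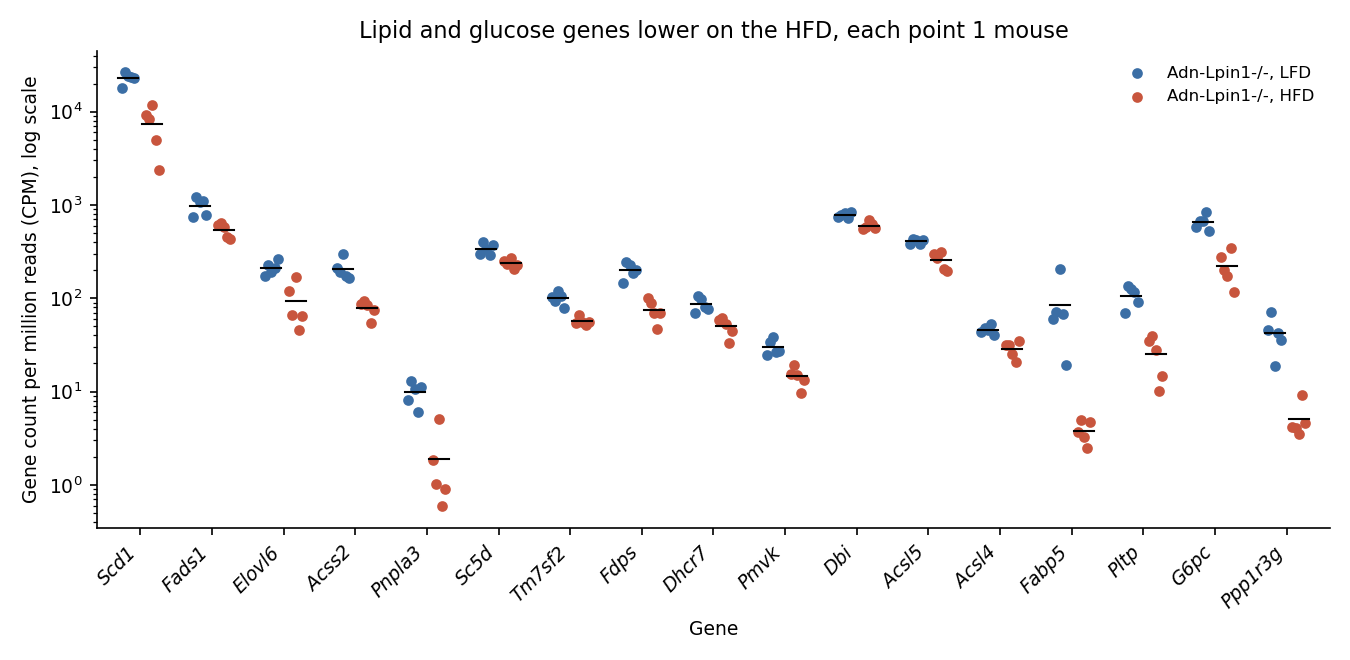
Each point is 1 Adn-Lpin1-/- mouse, blue on the LFD and red on the HFD, bars are the means of 5 mice, and the vertical axis is CPM on a log scale. For all 17 genes the HFD mice lie below the LFD mice; Scd1 falls from between 17863 and 26359.6 CPM to between 2344 and 11889 CPM, and Fabp5 from between 19.2 and 207 CPM to between 2.5 and 4.91 CPM.

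In glucose metabolism 2 of 28 tested genes were called, both lower. Ppp1r3g, which targets protein phosphatase 1 to glycogen after feeding, was at 45.9, 71.7, 18.6, 42 and 36 CPM on the LFD and at 4.21, 4.1, 3.53, 9.1 and 4.59 CPM on the HFD. Mouse 3 was the lowest of the LFD group and still above every HFD mouse, and the decrease was 8.42-fold (log2 fold change -3.07, SE 0.35, edgeR adjusted p = 7.26e-05). G6pc, the glucose-6-phosphatase that releases glucose from hepatocytes, was at 584, 667, 667, 836 and 524 CPM on the LFD and at 279.8, 200.4, 174, 348 and 115 CPM on the HFD. The groups did not overlap (log2 fold change -1.55, SE 0.33, edgeR adjusted p = 0.0168). Pck1, which was not called and was chosen after its values were seen, was at 3603 to 6332 CPM on the LFD, and on the HFD 4 mice were at 2418 to 3007 CPM and mouse 4 at 6459 CPM. Of the insulin signalling list, 0 of 26 tested genes were called. Its smallest p-values belonged to Igfbp1, an insulin-repressed secreted binding protein (log2 fold change -1.67, edgeR adjusted p = 0.0791), and to Irs2, an insulin receptor substrate (log2 fold change -0.65, edgeR adjusted p = 0.0791).

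Among 18 apolipoprotein and VLDL genes 1 was called. Pltp, which moves phospholipids between lipoproteins, was at 68.8, 134, 125, 116 and 90.5 CPM on the LFD and at 34.9, 39, 27.7, 10.2 and 14.7 CPM on the HFD. Mice 4 and 5 were the lowest of the HFD group, and all HFD mice were below the LFD range (log2 fold change -2.08, SE 0.45, edgeR adjusted p = 0.0177). Other large decreases fell in no single pathway. The largest decreases were named only among called genes whose diets did not overlap. Chrna4, a neuronal nicotinic acetylcholine receptor subunit, was at 36.3, 45.5, 45.5, 24.6 and 16 CPM on the LFD and at 2.45, 2.55, 2.13, 1.19 and 2.07 CPM on the HFD. It was 16.1-fold lower with no overlap (log2 fold change -4.01, SE 0.48, edgeR adjusted p = 0.000116). Lepr, the leptin receptor, was at 14.5, 15.3, 8.77, 27.1 and 6.33 CPM on the LFD and at 2.93, 2.91, 2.98, 1.78 and 4.46 CPM on the HFD (log2 fold change -2.25, SE 0.36, edgeR adjusted p = 0.00191). Cib3, a calcium-binding protein, was at 6.93 to 21.1 CPM on the LFD and at 0.447 to 2.83 CPM on the HFD, a 7.37-fold decrease (edgeR adjusted p = 0.00127).

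Tff3, a secreted trefoil peptide, was at 3.43, 4.47, 17, 3.06 and 1.13 CPM on the LFD and at 0.608, 1.01, 0.539, 0.449 and 0.956 CPM on the HFD. LFD mouse 3 was far above its group, and without it the log2 fold change went from -3.02 (edgeR adjusted p = 0.0173) to -2.07 (edgeR adjusted p = 0.067). Bglap3, an osteocalcin-related gene that shares 22.5% of its 31-base words with other genes, had a log2 fold change of -2.12 (SE 0.56, edgeR adjusted p = 0.0486). This call was lost in 14 of the 20 fits that left out 1 mouse, 9 of them Adn-Lpin1-/- mice, with an edgeR adjusted p up to 0.142 without LFD mouse 2.

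On the rising side were several cytochromes P450. Of 28 tested members of the xenobiotic P450 list 7 (25.0%) were called, all higher, against 1.20% of all genes tested. The list median was 0.23, and in WT it was 0.27. The count of 7 became 2 without LFD mouse 3 and 3 without LFD mouse 2 or 4 or HFD mouse 2. It was 4 without HFD mouse 1, and 4 in a fit of the Adn-Lpin1-/- mice alone. Cyp2b9 and Cyp2b13, which are far more abundant in female than in male mouse liver, had the largest increases of the named genes. Cyp2b9 (ENSMUSG00000040660, chromosome 7, 26173411 to 26210661 of GRCm38) was at 0.776, 0.173, 0.016, 3.67 and 5.62 CPM on the LFD and at 133, 92.9, 54.2, 23 and 12.3 CPM on the HFD. Both groups were widely spread, over more than a factor of 10 on the HFD, and they did not overlap. Cyp2b13 was at 0.038, 0, 0, 0.154 and 0.197 CPM on the LFD and at 3.47, 2.42, 1.44, 0.656 and 0.484 CPM on the HFD. On the HFD both genes ranked the 5 mice alike. The log2 fold changes were 4.94 (SE 1.26, edgeR adjusted p = 0.0406) for Cyp2b9 and 4.39 (SE 0.94, edgeR adjusted p = 0.0175) for Cyp2b13. Cyp2b9 lost its call in 10 of the 20 fits that left out 1 mouse, 7 of them Adn-Lpin1-/- mice (edgeR adjusted p = 0.101 without LFD mouse 3), and Cyp2b13 lost it without LFD mouse 3 (edgeR adjusted p = 0.0551). The pair share transcript sequence, with 19.6% of the 31-base words of Cyp2b9 present in Cyp2b13.

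The Cyp2c and Cyp2a genes moved less and more evenly. Cyp2c37, an arachidonic acid hydroxylase, was at 121, 51.2, 58.4, 62.3 and 65.9 CPM on the LFD and at 134, 159.9, 179, 245 and 199 CPM on the HFD. LFD mouse 1 came near the lowest HFD mouse and the others were well below (log2 fold change 1.35, SE 0.22, edgeR adjusted p = 0.00243). Cyp2c50 was at 389, 224, 234, 216 and 282 CPM on the LFD and at 426, 477, 533, 619.5 and 587 CPM on the HFD (log2 fold change 0.97, SE 0.17, edgeR adjusted p = 0.00337). Of the 31-base words of Cyp2c37, 34.2% are also in Cyp2c50. Cyp2a5, the coumarin hydroxylase, and its close relative Cyp2a4, which acts on steroids, had log2 fold changes of 0.75 (SE 0.18, edgeR adjusted p = 0.0291) and 0.72 (SE 0.17, edgeR adjusted p = 0.0271), each without overlap. More than a factor of 10 separated their levels, with 201 to 648 CPM for Cyp2a5 and 8.02 to 23.2 CPM for Cyp2a4 over the 10 mice. Of the 31-base words of Cyp2a4, 55.9% are in Cyp2a5. Reads that aligned to both were not counted, so the levels of the pair are uncertain. Cyp2a5 lost its call in 6 and Cyp2a4 in 5 of the fits that left out 1 mouse, with edgeR adjusted p of 0.08 and 0.0804 without LFD mouse 3. Cyp2a22, named after its values were seen, was the remaining call (log2 fold change 0.73, edgeR adjusted p = 0.0469). Cyp2b10, which was chosen after its values were seen, was at 0.558 to 3.94 CPM on the LFD and 5.59 to 13.8 CPM on the HFD with no overlap, and had an edgeR adjusted p of 0.153.

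Sex-biased liver genes went in both directions. Of 16 tested genes on the female-biased list, 3 were called higher, all of them P450 genes described above, and the count was 0 without LFD mouse 3 and 1 without LFD mouse 2 or 4 or HFD mouse 1 or 2. Of 22 tested genes on the male-biased list, 2 were called lower and 1 higher. Cyp4a12a and Cyp4a12b, fatty acid hydroxylases of male liver, share 62.2% of the 31-base words of Cyp4a12a. Reads that aligned to both were not counted, so the levels of the pair are uncertain. Cyp4a12b was at 224, 269, 249.9, 167 and 232 CPM on the LFD and at 69.5, 74, 62.5, 56.8 and 84.1 CPM on the HFD. This decrease had the smallest adjusted p of the named genes (log2 fold change -1.72, SE 0.17, edgeR adjusted p = 4.43e-05). Cyp4a12a was at 459 to 611 CPM on the LFD and 142 to 390.5 CPM on the HFD (log2 fold change -1.11, SE 0.24, edgeR adjusted p = 0.0202), and without HFD mouse 1 its edgeR adjusted p was 0.0559. Obp2a, an odorant-binding lipocalin on the same list, rose in the opposite direction, from 2.9, 0.694, 1.47, 0.558 and 2.79 CPM to 8.48, 6.59, 29.2, 15.6 and 5.55 CPM. All HFD mice were above the LFD range (log2 fold change 2.96, SE 0.52, edgeR adjusted p = 0.00397).

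Enho, which encodes the secreted peptide adropin, was the 1 called increase among 23 tested hepatokines, with Orm1 the 1 called decrease. It was at 2.14, 1.5, 1.95, 1.38 and 1.48 CPM on the LFD and at 2.7, 5.2, 3.74, 9.79 and 16.6 CPM on the HFD. The LFD mice were tightly grouped and HFD mice 4 and 5 stood highest, with no overlap between the diets. The increase was 4.5-fold (log2 fold change 2.17, SE 0.50, edgeR adjusted p = 0.0256), and without HFD mouse 5 the log2 fold change was 1.66 (edgeR adjusted p = 0.0727). The call was also lost without LFD mouse 2, 3 or 4. Hsd17b6, which converts steroids in the androgen and retinol pathways, was at 132, 79.5, 74.4, 90.8 and 102 CPM on the LFD and at 187, 172, 199.7, 394 and 251 CPM on the HFD (log2 fold change 1.33, SE 0.23, edgeR adjusted p = 0.00337). Mouse 4 of the HFD group was highest, and all HFD mice were above the LFD range.

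Sema5b, Aatk, Tpm2, Chrm3 and Slc22a29 were also among the named increases of 2-fold or more. Sema5b, a semaphorin, was at 3.4 to 12.7 CPM on the LFD and 13.1 to 32.4 CPM on the HFD (log2 fold change 1.74, edgeR adjusted p = 0.0362). Aatk, a kinase named for its rise in apoptosis, was at 9.31 to 14 and 23.5 to 33.8 CPM (log2 fold change 1.29, edgeR adjusted p = 0.0322). Tpm2, a tropomyosin of contractile cells, was at 6.89 to 16.2 and 22.2 to 27.4 CPM (log2 fold change 1.16, edgeR adjusted p = 0.033). The largest increases were named only among called genes without overlap, so the lack of overlap in these genes is no further evidence. All 5 calls were fragile. The call was lost in 7 of the 20 fits without 1 mouse for Sema5b, 6 for Aatk, 8 for Tpm2, 15 for the muscarinic receptor gene Chrm3 and 12 for the organic anion transporter gene Slc22a29. The highest edgeR adjusted p in these fits were 0.101, 0.0927, 0.0981, 0.129 and 0.111, each without LFD mouse 3. Slc22a29 also shares 44.0% of its 31-base words with other genes.

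**Figure D3:**
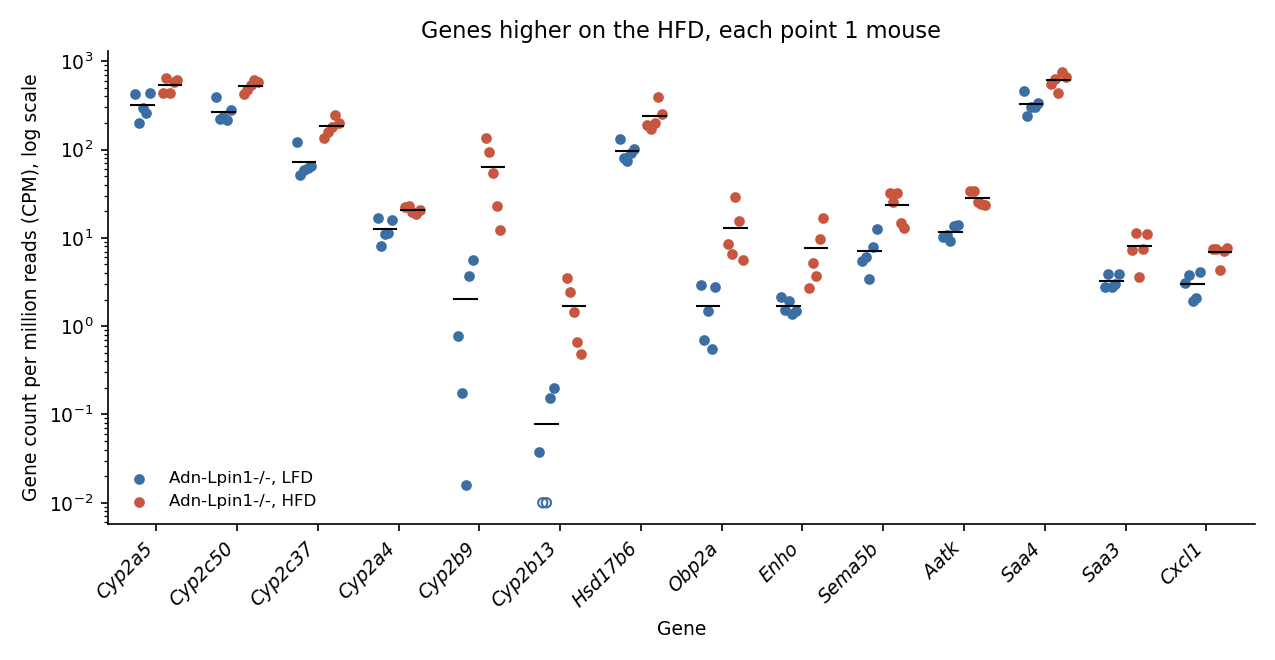
Each point is 1 Adn-Lpin1-/- mouse, blue on the LFD and red on the HFD, bars are the means of 5 mice, and the vertical axis is CPM on a log scale, where the open circles at the bottom stand for 2 LFD mice with no Cyp2b13 count. Cyp2b9 and Cyp2b13 are spread over the mice of each diet, whereas Cyp2c50 lies between 216 and 389 CPM on the LFD and between 426 and 619.5 CPM on the HFD.

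Acute phase and inflammatory genes did not move as a block. Of 24 acute phase genes 3 were called higher and 2 lower. Saa3, an inducible serum amyloid A, was at 2.77, 3.93, 2.76, 3.04 and 3.85 CPM on the LFD and at 7.28, 11.2, 3.63, 7.47 and 11 CPM on the HFD. Mouse 3 of the HFD group lay inside the LFD range and the other HFD mice above it (log2 fold change 1.31, SE 0.25, edgeR adjusted p = 0.00812). Saa4, the constitutive form carried on HDL, rose from 238 to 458 CPM on the LFD to 437 to 749.9 CPM on the HFD (log2 fold change 0.89, edgeR adjusted p = 0.00691), and Itih4, a plasma protease inhibitor chain, from 1191 to 1294 CPM to 1566 to 1885 CPM (log2 fold change 0.47, edgeR adjusted p = 0.0102). Apcs, serum amyloid P component, went down, from 44.1, 50.9, 64.1, 46.7 and 46.2 CPM to 21.4, 29.5, 24.1, 23 and 18.8 CPM, with no overlap (log2 fold change -1.11, SE 0.13, edgeR adjusted p = 0.000101). Orm1, an orosomucoid with 27.5% of its 31-base words in Orm2, had a log2 fold change of -0.59 (edgeR adjusted p = 0.0431), a call lost in 11 fits without 1 mouse (edgeR adjusted p up to 0.116 without LFD mouse 3).

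Cxcl1, a neutrophil chemokine, was at 3.05, 3.8, 1.95, 2.06 and 4.07 CPM on the LFD and at 7.51, 7.47, 4.37, 7.18 and 7.6 CPM on the HFD. It was one of 2 calls among 17 tested chemokine and inflammation genes (log2 fold change 1.19, SE 0.27, edgeR adjusted p = 0.0227), and the call was lost without LFD mouse 3 (edgeR adjusted p = 0.0732), LFD mouse 4 or HFD mouse 1. The other was Ccl9, a macrophage chemokine, which went from 25.4 to 39 CPM on the LFD down to 12 to 20.5 CPM on the HFD (log2 fold change -0.82, edgeR adjusted p = 0.0291), a call lost without LFD mouse 2 or 3 or HFD mouse 1 or 3, with an edgeR adjusted p up to 0.0927. Of the same list, 14 of 17 tested members had a log2 fold change above 0, with a median of 0.35. The Kupffer cell and macrophage markers had 20 of 23 log2 fold changes above 0, a median of 0.32 and summed levels of 331 to 609 CPM on the LFD and 352 to 792 CPM on the HFD. Their part in the chemokine values was not tested. The marker list held 1 call, and it was a decrease. Cd9, a tetraspanin of many cell types, was at 17.4, 16.5, 20.2, 14.3 and 16.4 CPM on the LFD and at 7.99, 8.34, 11.4, 9.15 and 8.34 CPM on the HFD (log2 fold change -0.91, SE 0.14, edgeR adjusted p = 0.00166).

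Ighm, the immunoglobulin mu chain of B cells, was at 28.4, 25.4, 14, 17.7 and 24.4 CPM on the LFD and at 5.55, 8.72, 6.34, 3.95 and 5.36 CPM on the HFD. The diets did not overlap (log2 fold change -1.88, SE 0.41, edgeR adjusted p = 0.0184). Of 12 lymphocyte markers 4 passed the limit on low counts, and the other 3, Cd4, Cd79a and Cd79b, had log2 fold changes of 0.37, 0.49 and 0.41 and were not called. The fitted direction of Cd4, Cd79a and Cd79b was opposite to that of Ighm, and the part of cell numbers in the Ighm values was not tested.

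The remaining calls on the lists were small in size. Car3, carbonic anhydrase 3 of adipocytes and hepatocytes, was among the most abundant called genes, at 2059, 2287, 1452, 1992 and 3298 CPM on the LFD and 4127, 3517, 3057, 3420.2 and 4009 CPM on the HFD. Only LFD mouse 5 reached the HFD range (log2 fold change 0.71, SE 0.18, edgeR adjusted p = 0.0447), and the call was lost in 15 of the 20 fits without 1 mouse, with an edgeR adjusted p of 0.119 without LFD mouse 3. Of the 10 listed adipocyte genes, Adipoq, Plin1, Lep, Retn and Ucp1 were under the limit on low counts. The 10 livers held 0 to 8 counts of Adipoq, 0 to 3 of Plin1, 0 to 3 of Lep, 0 to 6 of Retn and 0 to 2 of Ucp1. The 5 tested, Car3, Cfd, Cidea, Fabp4 and Adrb3, all had log2 fold changes above 0, from 0.10 to 2.85 with a median of 0.71. Only Car3 was called, and values of Cfd and Cidea are given at the end. The part of adipose cells in these values was not tested. Baat, which conjugates bile acids with taurine, was the 1 call of 26 bile acid genes (3.85%, against 2.46% of all genes tested). It was at 120.9 to 151.5 CPM on the LFD and 150.7 to 185.1 CPM on the HFD, so the diets overlapped slightly. Its log2 fold change was 0.36 (edgeR adjusted p = 0.0151). In a fit of the Adn-Lpin1-/- mice alone the call was lost (edgeR adjusted p = 0.0806). Pigr, the polymeric immunoglobulin receptor on the periportal list, rose from between 841 and 989 CPM to between 1154 and 1831 CPM (log2 fold change 0.61, SE 0.12, edgeR adjusted p = 0.00691).

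Conjugation genes gave 3 calls among 36 tested. Gclm, a subunit of the glutathione-making ligase, and Sult1b1, a sulfotransferase, had log2 fold changes of 0.35 (edgeR adjusted p = 0.0239) and 0.37 (edgeR adjusted p = 0.0177), and Gstm6, a glutathione transferase, of -0.64 (edgeR adjusted p = 0.0314). Gclm and Gstm6 lost the call in 5 fits each without 1 mouse (edgeR adjusted p of 0.0734 and 0.0981 without LFD mouse 3), and Sult1b1 without LFD mouse 2 (edgeR adjusted p = 0.0512) or 3. Gpx1, glutathione peroxidase 1, was 1429 ± 236 CPM on the LFD and 1894 ± 121 CPM on the HFD (mean ± SD, n = 5 mice each; log2 fold change 0.41, edgeR adjusted p = 0.0414), and its call was lost in 13 of the fits without 1 mouse (edgeR adjusted p up to 0.114 for LFD mouse 3). Ndrg2, a stress-responsive gene of differentiated hepatocytes, was 1026 ± 58.8 CPM on the LFD and 1358 ± 114 CPM on the HFD with no overlap (edgeR adjusted p = 0.00842). Eef1a1, a translation elongation factor, was 2879 ± 138 CPM and 2433 ± 52.9 CPM (edgeR adjusted p = 0.0315). The Eef1a1 call was lost in 7 fits without 1 mouse (edgeR adjusted p = 0.0861 without LFD mouse 2), and 49.8% of its 31-base words occur in other genes. Of 28 oxidative phosphorylation genes, Cox7a2, a cytochrome c oxidase subunit, was called (log2 fold change -0.24, edgeR adjusted p = 0.0465), and lost the call in 10 of the 20 fits without 1 mouse (edgeR adjusted p up to 0.122 for HFD mouse 2).

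For 18 of the 36 lists no member was called, and they held 299 tested places. Fatty acid oxidation was the largest, with 0 of 34 called, a median of 0.02 and a range from -1.12 to 0.35. Its smallest p-values were those of Acadm, the medium-chain acyl-CoA dehydrogenase (log2 fold change 0.31, edgeR adjusted p = 0.128), and Angptl4, a secreted lipase inhibitor (log2 fold change -0.47, edgeR adjusted p = 0.134). The lipid droplet list had 0 of 24 called, and Abhd5, the co-activator of adipose triglyceride lipase, had its smallest p (log2 fold change -0.31, edgeR adjusted p = 0.085). Of 19 tested collagens none was called, with log2 fold changes between -0.14 and 0.20, and of 17 stellate cell and fibroblast markers none was called either, with Rgs5 at 0.65 (edgeR adjusted p = 0.147). The amino acid and urea cycle genes, the unfolded protein and integrated stress response genes, the clock genes and the interferon-stimulated and antigen presentation genes had 0 calls among 32, 24, 18 and 24 tested, with edgeR adjusted p no smaller than 0.0506, 0.25, 0.223 and 0.0787. A p that misses the threshold does not show that a gene is unchanged.

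Liver Lpin1, the gene deleted in adipocytes, was at 1195, 590.4, 453, 512 and 322 CPM on the LFD and at 140.0, 119.7, 579.7, 533 and 285 CPM on the HFD. The Cre is not active in hepatocytes, so this level does not check the genotype labels. The diets overlapped and the log2 fold change was -0.89 (SE 0.50, edgeR adjusted p = 0.392). Lpin2 and Lpin3, the paralogs, had log2 fold changes of -0.30 and -0.10 and edgeR adjusted p of 0.402 and 0.72.

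In WT littermates the same diets gave 144 calls (1.10% of genes tested), 56 higher (0.429%) and 88 lower (0.674%). Of the 321 genes called in Adn-Lpin1-/- mice, 52 were also called in WT, all in the same direction, which is 16.2% of the former list and 36.1% of the latter. The sign was the same in WT for 295 of the 321, and the absolute fold was smaller in WT for 290, which is not a test, since the genes were chosen on their change in Adn-Lpin1-/- mice. The difference of the diet effect between the genotypes, tested directly, gave 0 calls in edgeR's quasi-likelihood test, 938 genes at an unadjusted p under 0.05 (7.19%), 30 calls by DESeq2 and 0 by voom. The smallest unadjusted p of that test belonged to Lars2, Malat1, Pmvk, Erg28 and 1810008I18Rik, with edgeR adjusted p from 0.287 to 0.292. Erg28, a scaffold of sterol synthesis enzymes, rose in WT (log2 fold change 0.36, edgeR adjusted p = 0.0212) and had a log2 fold change of -0.16 in Adn-Lpin1-/- mice. 1810008I18Rik, a long noncoding RNA, was 69.3 ± 6.43 CPM on the LFD and 35.2 ± 2.95 CPM on the HFD in Adn-Lpin1-/- mice (mean ± SD, n = 5 each, edgeR adjusted p = 7.26e-05) and 68.1 ± 13.1 and 60.5 ± 5.87 CPM in WT. Lars2, a mitochondrial leucyl-tRNA synthetase, and Malat1, a nuclear noncoding RNA, had log2 fold changes of -1.08 (edgeR adjusted p = 0.0107) and -0.60 (edgeR adjusted p = 0.0541) in WT and of 0.30 and 0.40 in Adn-Lpin1-/- mice.

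Cholesterol synthesis was the list with the most differences between the genotypes at the unadjusted level. All 26 tested members had a lower HFD response in Adn-Lpin1-/- than in WT mice. Of these, 16 had an unadjusted p under 0.05, against 7.19% of all genes. None was called after adjustment (smallest edgeR adjusted p = 0.292). The members share a pathway and were measured in the same 20 mice, so they are not independent. Their counts are a description and not a test of the list. The DESeq2 Wald test called this difference for 2 members, Cyp51 and Pmvk, voom for none, and voom with the pools for 14. In WT, 22 of the 26 had a log2 fold change above 0 and none was called by edgeR, with a median of 0.20 against -0.43 in Adn-Lpin1-/- mice. For the WT diet effect voom called 5 members (Hmgcs1, Idi1, Msmo1, Mvk and Srebf2), voom with the pools 9, and edgeR 2 without mouse 5 of the WT LFD or of the WT HFD group. Pmvk was 24 ± 5.54 CPM on the LFD and 28.1 ± 6.51 CPM on the HFD in WT (mean ± SD, n = 5), and the difference of its diet effect was -1.27 on the log2 scale (SE 0.26, edgeR adjusted p = 0.292). Leaving out each of the 20 mice in turn left 25 or 26 members with a negative difference and 14 to 18 at an unadjusted p under 0.05. The lipogenesis list had 4 of 24 at that level, with 20 of its 24 members below 0 in WT and 18 in Adn-Lpin1-/- mice. Fabp5 and Pnpla3 were called in both genotypes, with log2 fold changes in WT of -3.17 (edgeR adjusted p = 0.00959) and -2.71 (edgeR adjusted p = 0.0128). So were Cyp4a12b (-1.48 in WT, edgeR adjusted p = 0.000465), Chrna4 (-2.34 in WT, edgeR adjusted p = 0.0138), Pnpla5, Cd9, Itih4, Aatk, Tpm2 and Sult1b1. The median of the xenobiotic P450 list was 0.27 in WT, where 1 member was called. Ppp1r3g was 3.1 ± 1.09 CPM on the LFD and 1.55 ± 0.71 CPM on the HFD in WT (mean ± SD, n = 5, edgeR adjusted p = 0.209), and the difference of its diet effect was -2.08 on the log2 scale (SE 0.51, edgeR adjusted p = 0.308).

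**Figure D4:**
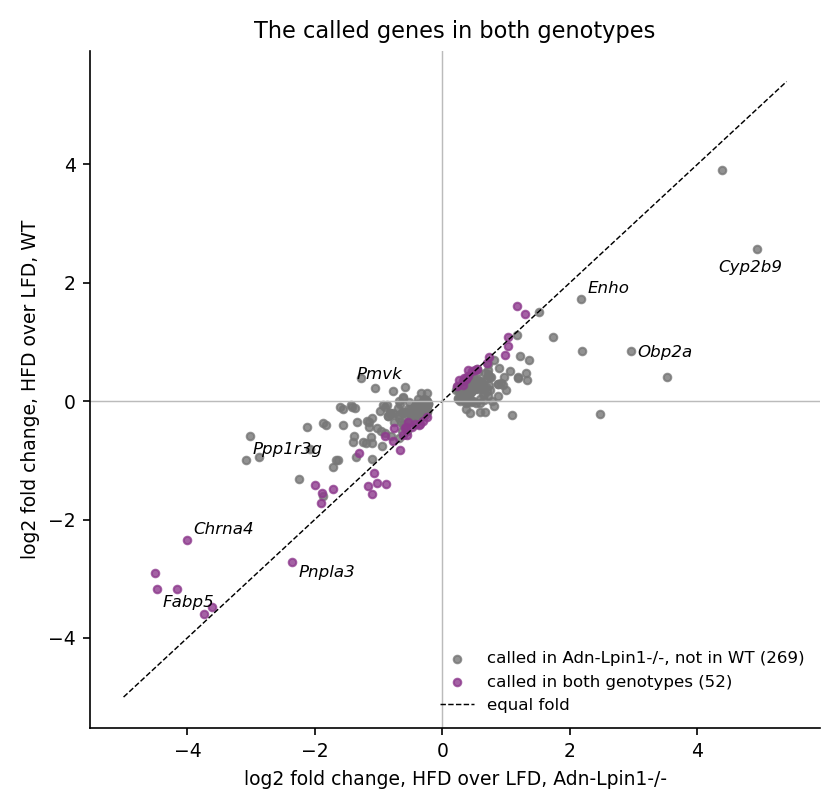
Each point is 1 of the 321 genes called by diet in Adn-Lpin1-/- mice, with its log2 fold change of the HFD over the LFD there on the horizontal axis and in WT on the vertical axis. The 52 genes called in both genotypes (purple) all lie in the lower left or upper right, and most points lie nearer to the horizontal axis than the dashed line of equal fold.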

How the data were processed

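RNA of mouse livers was selected for poly-A and sequenced by the authors, who used STAR 2.5.1a for alignment to GRCm38 and featureCounts 1.4.6-p5 of Subread for counting on the gene models of Ensembl release 76. According to the paper, only reads that aligned uniquely and without ambiguity were counted. The strand setting is not given in the sources used here. The authors deposited, for 41388 genes in each library, a raw count together with a CPM and an RPKM value. The deposited counts were analysed here, and the deposited CPM and RPKM were checked for their range only. Symbols were found for 40340 gene identifiers (97.5%), and coordinates came from GENCODE mouse release 21 on GRCm38.

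The 355 rRNA genes were left out, and the limit on low counts, 1 CPM exceeded in 4 or more of 20 mice, was passed by 13052 genes, which edgeR 4.0.16 (R 4.3.3) tested. Library sizes were scaled by TMM, the 4 group means were fitted together, and diet in each genotype and the difference between these were tested by quasi-likelihood with Benjamini-Hochberg adjustment. Printed CPM were computed on the scaled library sizes, and pools were left out since they repeat the same mice. The test was checked on simulated counts first.

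The groups and the 36 gene lists, of which 24 are pathways and 12 are marker lists, were chosen with earlier results of these data known. Named genes are the 12 largest increases and 12 largest decreases among called genes without overlap and with a mean of at least 1 CPM (predicted genes and pseudogenes counted, not named), the 6 most abundant called genes, up to 5 called members of each list or else the 2 of smallest p, the 5 smallest p of the difference, and the 3 lipin genes. Shared 31-base words were counted in GENCODE transcripts. The alternatives were DESeq2 1.42.0 (size factors and Wald test), voom with quality weights of limma 3.58.1, with and without the pools, no limit on low counts, edgeR's own limit, a fit of the 2 groups alone, a replicate block, and the omission of each mouse in turn. Python 3.11.15 with numpy 2.4.6, pandas 2.3.3, scipy 1.17.1 and matplotlib 3.10.9 was used for the rest. The values of a few list members are not reported here.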

Additional observations from a re-analysis of the deposited data

Results flagged for a closer look

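Among the called genes named here, each diet group of 5 mice was searched for 1 mouse that stood apart from the rest of its group by more than Dixon's 95% critical value, and 5 of 122 groups held one; chance flags about 1 in 20. On the HFD, mouse 4 was low for Chrna4 (1.19 CPM) and high for Ppp1r3g (9.1 CPM), mouse 2 was low for Cib3 (0.447 CPM) and mouse 3 was low for Cxcl1 (4.37 CPM). On the LFD, mouse 2 was low for Pigr (841 CPM). For each of these 5 genes the diets did not overlap with that mouse included. For Chrna4, Ppp1r3g and Cib3 the rule for naming the largest decreases required this.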

How the results depend on the processing

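Of the 61 called genes named, 34 kept the call and none changed direction in all 28 alternatives. The diet effect in Adn-Lpin1-/- mice gave 577 calls (281 higher, 296 lower) with the DESeq2 Wald test, 2342 (1165 and 1177) with voom and the pools, and 161 (67 and 94) in the fit of the 2 groups alone, where fewer mice set the spread. These lists held 321, 311 and 141 of the 321 calls. With no limit on low counts 101 genes were higher. The diet effect in WT gave 400 (173 and 227), 1938 (974 and 964) and 72 (26 and 46) in those fits, and 670 (309 and 361) with voom alone. The difference between the genotypes gave 30 (14 higher, 16 lower) and 189 (91 and 98) with the Wald test and with voom and the pools. The pools repeat the RNA of the same mice and so are not further replicates. Leaving out 1 mouse gave 123 to 378 calls in Adn-Lpin1-/- mice (52 to 194 higher, 71 to 204 lower), 55 to 289 in WT (19 to 139 and 36 to 150) and 0 for the difference.

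The replicate numbers pair no mice in the labels, and deviations of same-numbered Adn-Lpin1-/- mice correlated between -0.415 and 0.172, with 1 of 5 numbers nearest to its own. With the replicate block there were 214 calls in Adn-Lpin1-/- mice (98 higher), 90 in WT (31 higher) and 0 for the difference, and 199 of the 321 calls remained.

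Of uncalled genes, Hba-a2 (0.09) changed sign with the replicate block (-0.10) and in 5 fits without 1 mouse (those fits ran from -0.37 to 0.61), Lars2 (0.30) with voom and the pools (-0.40) and Upk3b (-0.60) without LFD mouse 2 (such fits ran from -0.86 to 0.33). Each Adn-Lpin1-/- library held 51095146 counts or more, and at that depth a gene under 1 CPM rests on few counts.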

Other observations

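Some genes of fatty liver and of collagen-making cells varied more between mice of one diet than between the diets, and they are described here after their values were seen. Cidea, a lipid droplet protein that hepatocytes switch on in steatosis, was at 0.114, 6.54, 0.191, 8.4 and 24.4 CPM in the Adn-Lpin1-/- LFD mice and at 39.8, 37.5, 13.3, 0.276 and 1.85 CPM in the HFD mice. Its relative Cidec was at 24.8, 84.3, 30.8, 94.2 and 114 CPM on the LFD and at 133, 119, 79.1, 14.8 and 28.6 CPM on the HFD. Cfd, the complement protease adipsin, was at 1.76, 8.35, 2.96, 7.52 and 35.9 CPM on the LFD and at 146, 183, 68.5, 6.89 and 3.9 CPM on the HFD. HFD mice 1, 2 and 3 were high and HFD mice 4 and 5 low for all 3 genes, and on the LFD mouse 5 was the highest and mice 1 and 3 were the lowest. Col1a1, the collagen of scar tissue, was at 11.2, 78.1, 21.1, 20.3 and 37.1 CPM on the LFD and at 73.1, 52.8, 22.4, 5.59 and 9.92 CPM on the HFD, again with mice 4 and 5 lowest. None of these was called by diet, with edgeR adjusted p of 0.578, 0.946, 0.137 and 0.984. Fatty liver and fibrosis of these mice were not analysed here.

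Several inflammatory genes lay under the limit on low counts and so were not in the test. Ccl2, a chemokine that draws monocytes, had 4, 44, 13, 30 and 32 counts in the LFD mice and 86, 157, 50, 49 and 71 counts in the HFD mice. These counts are not scaled to library size. Once scaled, LFD mouse 2 lay above HFD mouse 3 for Ccl2, so the diets overlapped. S100a9, a neutrophil protein, had 26, 24, 16, 12 and 40 counts on the LFD and 53, 111, 71, 52 and 93 counts on the HFD, without overlap before or after scaling. Tnf had 0 to 15 counts on the LFD and 12 to 73 counts on the HFD. Fitted without that limit, these 3 genes had log2 fold changes of 1.43, 1.35 and 1.68, and none passed the test (edgeR adjusted p of 0.249, 0.21 and 0.378). They were picked after their values were seen. In the same fit S100a8, on the list of S100a9, had a log2 fold change of 0.002. Ccl3, Ccl4, Cxcl2, Il6, Tlr4, Ly6g, Mpo and Ngp, also under the limit, overlapped between the diets. Their log2 fold changes ran from 0.44 to 1.48, and none passed the test.

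The pools hold RNA of these same mice, and the HFD pool differed from the LFD pool in the direction of the fit for 315 of the 321 called genes and for 9642 of all 13052 genes tested.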
